A study of Homo sapiens with 12 samples.

Results

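The clustered protocadherin locus on 5q31 was examined in DNA of the clear cell renal cell carcinoma lines 786 and 769 by HELP-tagging, a sequencing assay that counts the ends of fragments cut at CCGG. The locus was taken as chr5:140160000-140900000 (hg19) and was divided into PCDHA (chr5:140160000-140395000), PCDHB (chr5:140420000-140630000) and PCDHG (chr5:140700000-140900000). Of the 996035 CCGG sites listed in any library on chromosomes 1 to 22 and X, 595 lay in the locus: 158 in PCDHA, 148 in PCDHB, 258 in PCDHG and 31 between these clusters. The running site numbers of the files show at least 974 reference CCGG sites in the same span, and 595 of them had a tag in at least 1 of the 12 libraries. In both lines, cells that had received AA (ascorbic acid, going by the series title) gave 2 DNA samples and untreated control cells gave 1. Each of the 6 DNA samples was digested once with HpaII and once with MspI. Both are ccRCC lines with no normal kidney DNA beside them, and the labels give neither the dose nor the length of the AA treatment. They also do not say that the AA samples of a line came from separate cultures, so every p-value below measures only the spread between these samples, which may be technical.

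Clustered protocadherins are cell surface proteins of the cadherin superfamily, best known from neurons, where each cell uses its own combination of them to tell its own branches from those of other cells. The variable first exons of the PCDHA and PCDHG clusters each have their own promoter and are spliced to constant exons shared by the cluster, whereas PCDHB genes are single-exon genes. In neurons most of these promoters are chosen at random with the help of the insulator protein CTCF and are silenced by DNA methylation where not chosen, while C-type genes at the ends of PCDHA and PCDHG, among them PCDHAC2, PCDHGC3, PCDHGC4 and PCDHGC5, are used more evenly across cells. Long-range methylation over the locus has been described in kidney tumours of childhood and in several carcinomas. HpaII cuts CCGG only where the inner cytosine carries neither a methyl nor a hydroxymethyl group, and MspI cuts in either state. The HpaII tag share of a region divided by its MspI tag share is called the ratio below. It is 1 for the average of chromosomes 1 to 22 and X. Within a sample it is lower where more of the CCGG sites are modified. Each share is out of the tags of its own library, so a change over the whole genome does not show in the ratio. Between samples, a lower ratio is lower relative to the genome of that sample and need not mean more modification. AA is a cofactor of the TET enzymes, which oxidise methylcytosine, and the study asked what AA does to cytosine modification in renal cancer cells.

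The promoters whose sites could be placed on the tag map are shown first, because they hold the CCGG letters that the assay reads. RefSeq promoter sequences (250 bases before to 50 after a start, GRCh38.p14) matched 47 of the 53 protocadherin genes listed for the 3 clusters, with 52 starts. CCGG, which reads the same on both strands, was found in 25 of the 52 sequences (48.1%), against 63.1% of all 35116 RefSeq promoters of that length. By cluster, 5 of 13 PCDHA, 5 of 14 PCDHB and 15 of 25 PCDHG sequences held it. Where a promoter held at least 3 CCGG, its spacing pattern was looked for among the listed sites, and 4 genes matched exactly 1 place in the locus: PCDHGB4, PCDHGB5, PCDHGB6 and PCDHGC3. PCDHAC1 matched none. PCDHGB6 has a pair of starts, of which the one with more CCGG is printed. All are on the plus strand, CCGG is in capitals, and PCDHGB4 lies at chr5:141387635-141387934, PCDHGB5 at chr5:141397878-141398177, PCDHGB6 at chr5:141407953-141408252 and PCDHGC3 at chr5:141475716-141476015 in GRCh38.p14.
PCDHGB4: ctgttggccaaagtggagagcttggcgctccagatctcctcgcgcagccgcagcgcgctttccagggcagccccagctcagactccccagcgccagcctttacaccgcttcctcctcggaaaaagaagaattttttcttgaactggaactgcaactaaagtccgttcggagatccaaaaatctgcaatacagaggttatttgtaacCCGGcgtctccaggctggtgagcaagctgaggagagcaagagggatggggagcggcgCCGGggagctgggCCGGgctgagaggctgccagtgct
PCDHGB5: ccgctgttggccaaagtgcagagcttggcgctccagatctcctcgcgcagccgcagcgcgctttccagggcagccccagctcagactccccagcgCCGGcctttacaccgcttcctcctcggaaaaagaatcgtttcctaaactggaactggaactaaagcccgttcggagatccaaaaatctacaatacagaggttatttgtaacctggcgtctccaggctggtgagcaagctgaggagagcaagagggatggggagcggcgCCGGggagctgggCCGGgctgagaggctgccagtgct
PCDHGB6: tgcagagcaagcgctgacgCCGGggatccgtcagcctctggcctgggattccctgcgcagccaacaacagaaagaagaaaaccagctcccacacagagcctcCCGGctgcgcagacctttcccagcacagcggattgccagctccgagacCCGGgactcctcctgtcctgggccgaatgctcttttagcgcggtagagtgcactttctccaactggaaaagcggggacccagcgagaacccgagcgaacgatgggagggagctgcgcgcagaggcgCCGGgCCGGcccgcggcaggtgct
PCDHGC3: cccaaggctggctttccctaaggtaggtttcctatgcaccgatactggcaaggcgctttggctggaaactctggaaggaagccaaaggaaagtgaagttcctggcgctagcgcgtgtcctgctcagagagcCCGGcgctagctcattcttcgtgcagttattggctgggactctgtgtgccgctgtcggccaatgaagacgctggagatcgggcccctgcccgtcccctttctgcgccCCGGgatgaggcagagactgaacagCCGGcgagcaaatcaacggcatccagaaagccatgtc

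The PCDHGB4 and PCDHGB5 sequences carried the same base at 67.7% of their 300 positions, compared without gaps. Around the CCGG at base 264, counted from 1 at the 5′ end, the pair shared 55 bases before and 33 bases after it. A tag that starts there cannot be given to either gene, and this is visible in the counts below.

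The depth of the HpaII libraries was uneven. They held 9618660, 3659432 and 160231 tags on chromosomes 1 to 22 and X in 786 AA replicate 1, 786 AA replicate 2 and the 786 control, and 6220286, 2662391 and 5050658 in 769 AA replicate 1, 769 AA replicate 2 and the 769 control. The 786 control therefore has few HpaII tags of the locus, 60 in all, and each value that rests on it is coarse. MspI libraries held between 3472351 and 11431291 tags. Counts were not whole at 26.9% of the 595 sites, against 12.4% of all sites, because tags that match several places were divided among them. The share was 46.0% in PCDHB, 26.0% in PCDHA and 17.8% in PCDHG.

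MspI tags of the locus came to between 717 and 796 of every 1000000 tags in all 6 DNA samples. HpaII tags were less frequent. Per 1000000 tags, 786 AA replicate 1 had 365 in the locus, 786 AA replicate 2 had 344 and the 786 control had 374. The 769 samples had 372, 379 and 253 in that order. For the 786 control the 95% Wilson interval was 291 to 482. Such intervals cover counting error only, since tags carry no molecular identifiers. Of the 595 sites, 337 had no HpaII tag in any sample, 133 had one in a single sample, and 1 had one in all 6. HpaII tags were seen in both lines at 87 sites, in 786 alone at 83 and in 769 alone at 88. By library, HpaII tags were listed at 110, 116 and 14 sites in 786 AA replicate 1, 786 AA replicate 2 and the 786 control and at 148, 71 and 38 in the 769 samples. Both controls had the fewest sites of their line, the 786 control with the fewest tags of all libraries and the 769 control with more tags than 769 AA replicate 2.

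Every ratio of the whole locus and of each cluster was below 1 in all 6 DNA samples, so the locus was cut by HpaII less than the genome average in both lines and under both conditions. For the whole locus the ratio was 0.504, 0.432 and 0.522 in 786 AA replicate 1, 786 AA replicate 2 and the 786 control. It was 0.483, 0.478 and 0.352 in the 769 samples in the same order. The lines overlapped: they averaged 0.486 ± 0.0477 in 786 and 0.438 ± 0.0740 in 769 (SD, n = 3 each).

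**Figure D1:**
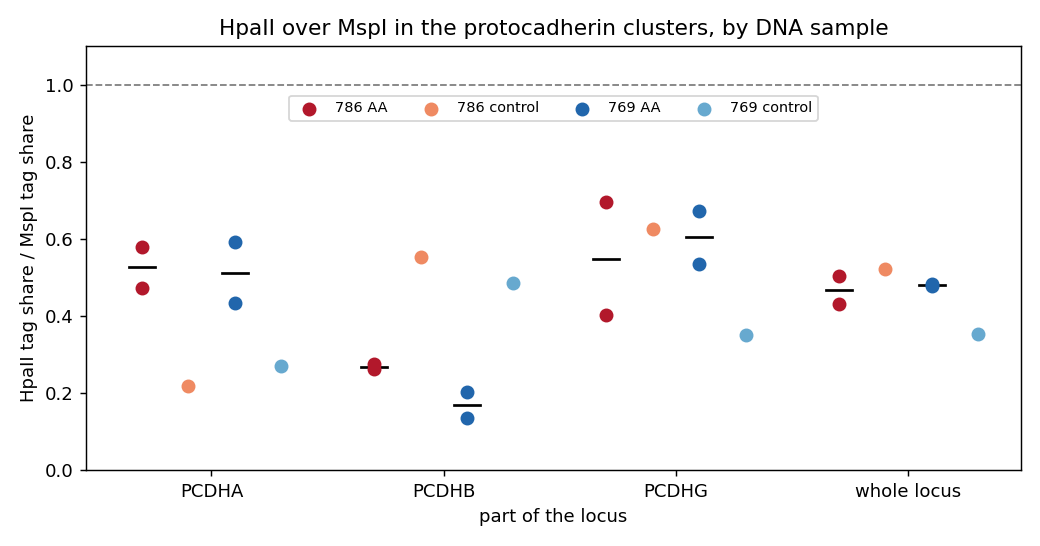
HpaII tag share over MspI tag share (vertical axis, linear, no unit) in PCDHA, PCDHB, PCDHG and the whole locus; each point is 1 DNA sample, black bars are means of the 2 AA samples of a line, and the dashed line at 1 is the genome average. All points lie below 1, AA points lie above the control of their line in PCDHA and below it in PCDHB.

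With AA the ratio was above the control of its line in PCDHA and below it in PCDHB in all 4 samples, and the difference between the clusters was not tested. In PCDHA the ratio was 0.579 and 0.473 in 786 AA samples against 0.218 in the 786 control, and 0.592 and 0.434 in 769 AA samples against 0.270 in the 769 control. All 4 AA samples were thus above the control of their line, by 2.12-fold on the mean over lines (log2 difference 1.09, exact permutation within lines, two-sided p = 0.111). In PCDHB the ratio was 0.261 and 0.274 in 786 AA samples against 0.552 in the 786 control, and 0.202 and 0.136 in 769 AA samples against 0.486 in the 769 control. All 4 were below the control of their line, with a mean 0.406-fold (log2 difference -1.30, two-sided exact permutation p = 0.111). The smallest p that 1 control a line allows is 0.111, so this design cannot reach 0.05. The 786 control values rest on 8 HpaII tags in PCDHA and 14 in PCDHB, for which exact Poisson bounds at 95% put the ratio between 0.0941 and 0.430 and between 0.302 and 0.926. In PCDHB none of the 14 lay at a site with whole counts in all libraries. The fall with AA in PCDHB could therefore not be checked on sites without divided tags.

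Single sites carried much of the 769 control. Its HpaII tags at chr5:140501852 came to 226, 49.0% of all its tags in PCDHB. With the highest site of each library left out, the PCDHB ratio in AA samples was still below the control of its line, with a mean 0.457-fold (exact permutation p = 0.111). In PCDHA the AA samples were then 3.28-fold above the controls on the mean (exact permutation p = 0.111). Counted as sites with a tag in place of tags, the PCDHB difference shrank to 0.819-fold (exact permutation p = 0.667), and the PCDHA difference to 1.56-fold (p = 0.222, exact permutation).

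In PCDHG both AA samples were above the control in 769, while their place beside the control in 786 is not known. The difference between the lines was not tested. The ratio was 0.695 and 0.402 in 786 AA samples against 0.627 in the 786 control, which lay between them as measured. That control value rests on 31 HpaII tags, for which exact Poisson bounds put the ratio between 0.426 and 0.889. These bounds hold the ratio of 786 AA replicate 1 and overlap those of 786 AA replicate 2, 0.368 to 0.437. The ratio was 0.536 and 0.671 in 769 AA samples against 0.351 in the 769 control, where both AA samples were higher. Over both lines the log2 difference was 0.263 (two-sided exact permutation p = 0.667). This is 1.20-fold, against 1.91-fold with the highest site of each library left out (exact permutation p = 0.222) and 1.87-fold over sites with whole counts (exact permutation p = 0.333).

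Between the lines no cluster differed beyond the spread of its samples. As the log2 difference of 786 minus 769, PCDHA gave -0.07 (exact permutation p = 0.9), PCDHB 0.523 (exact permutation p = 0.4), PCDHG 0.156 (exact permutation p = 0.6) and the whole locus 0.161 (exact permutation p = 0.5), all two-sided with 0.1 as the smallest p possible. The ranges of the lines overlapped in each cluster.

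Along the locus the HpaII tags were gathered in a few places. The locus was cut into 148 windows of 5 kb, of which 99 held a listed site and 42 reached 10 MspI tags in every DNA sample, 12 in PCDHA, 14 in PCDHB, 14 in PCDHG and 2 between them. The ratio averaged over the 6 samples was under 0.25 in 28 of the 42 (66.7%), against 37.8% of 38567 windows genome-wide and 33.0% of those on the rest of chromosome 5 that met the same minimum. The median was 0.116 in the locus, 0.614 genome-wide and 0.741 on the rest of chromosome 5. It was 0.101 in PCDHA, 0.205 in PCDHB and 0.0764 in PCDHG. These are descriptions: windows of 1 DNA sample are not replicates, and the mean over samples takes in the shallow 786 control.

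Genome-wide the ratio averaged over samples was higher in windows with more CCGG, and on that average the locus had the lower median in each of 4 CCGG classes. Windows with 8 to 11 reference CCGG had a median ratio of 0.127 in the locus (18 windows) and 0.352 genome-wide. Windows with 12 to 15 had 0.104 in the locus (13 windows) against 0.608 genome-wide. In the 6 locus windows with 16 or more the median was 0.669, against 1.35 genome-wide, and 3 of the 6 were over 1. The locus thus held both open and closed windows among its CCGG-rich ones. In the 5 windows with 1 to 7 CCGG the median was 0.0882, against 0.121 genome-wide. Single samples did not all follow the average. Of the 24 medians of a sample and a class, 13 were lower in the locus, 6 were higher and 5 were 0 in both. The locus was lower in 5 of 6 samples with 12 to 15 CCGG and in 5 of 6 with 16 or more, but in 2 and 1 of 6 with 8 to 11 and 1 to 7. In 769 AA replicate 1 the locus was higher in 3 of the 4 classes, with 0.289 against 0.0232 for 1 to 7 CCGG, 0.154 against 0.122 for 8 to 11 and 1.36 against 1.26 for 16 or more. It was also higher for 1 to 7 and 8 to 11 in 769 AA replicate 2 (0.0134 and 0.0461, against 0 in both) and for 1 to 7 in 786 AA replicate 1 (0.105 against 0.0657).

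**Figure D2:**
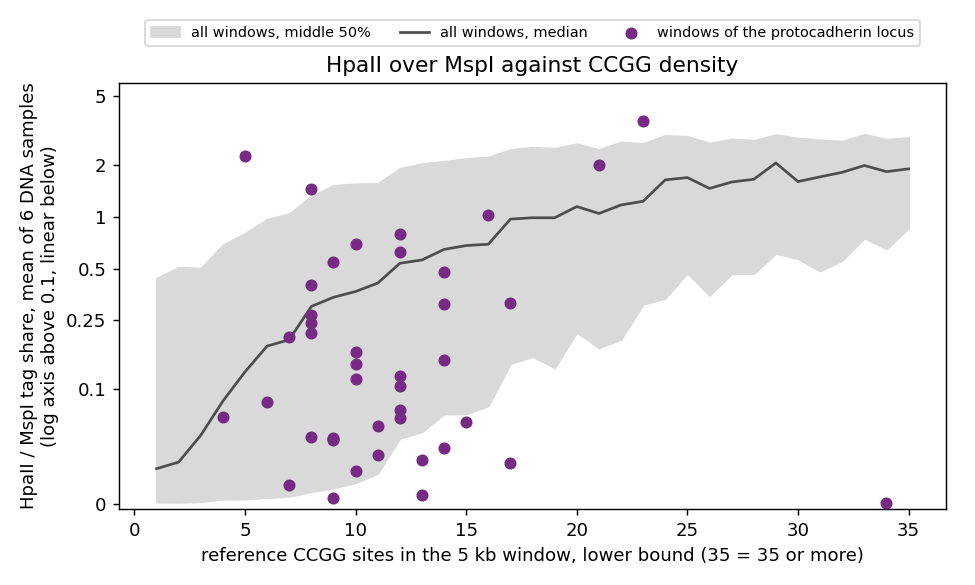
Ratio of HpaII to MspI tag share averaged over the 6 DNA samples (vertical axis, logarithmic above 0.1 and linear below) against how many reference CCGG a 5 kb window holds. Purple points are the 42 locus windows with the MspI minimum, the line and grey band are the median and the middle 50% of all such windows; most locus points lie under the line, and the window with 34 CCGG lies at the bottom.

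**Figure D3:**
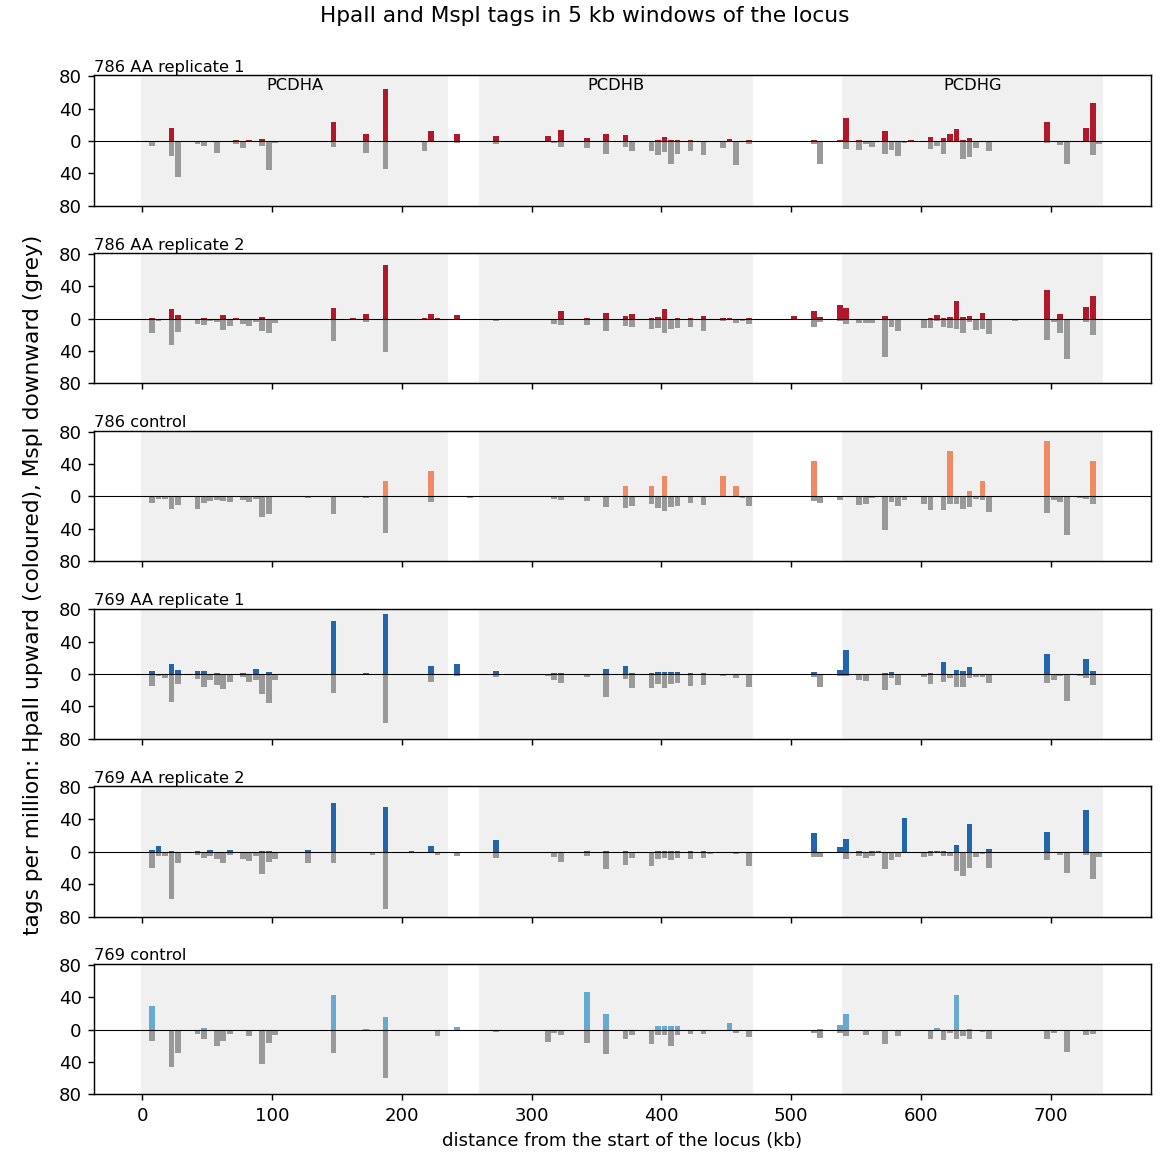
HpaII tags (coloured, upward) and MspI tags (grey, downward), each out of 1000000 tags of its library, in each 5 kb window of the locus by distance from its start, 1 panel a DNA sample. MspI tags are spread over all 3 shaded clusters, while the AA samples of both lines share tall HpaII bars near 185 kb in PCDHA and near 695 kb in PCDHG. The bar near 695 kb is also tall in the 786 control, from 11 HpaII tags, and absent in the 769 control.

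The open windows of PCDHA lay in its last part. From chr5:140200001 to 140300000 the ratio was 0.0596, 0.0650 and 0 in 786 AA replicate 1, 786 AA replicate 2 and the 786 control, and 0.125, 0.0691 and 0.0147 in the 769 samples in that order. From chr5:140300001 to 140400000 it was 1.55, 1.24 and 0.648 in the 786 samples and 1.58, 1.32 and 0.561 in the 769 samples. Every sample was higher in the second stretch than in the first, and the AA samples of both lines were above 1 there. The stretch is named by its coordinates, since no hg19 gene annotation was used.

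A pair of windows held most of these HpaII tags in every sample but the 786 control. The window chr5:140345001-140350000, with 16 reference CCGG, held 615, 241 and 3 HpaII tags in 786 AA replicate 1, 786 AA replicate 2 and the 786 control, and 459, 147 and 78 in the 769 samples. Its ratios were 1.87, 1.60 and 0.410 in 786 and 1.21, 0.782 and 0.257 in 769. All 4 AA samples were above both controls. The log2 fold change of AA over control in both lines was 2.10 (SE 0.737), with an adjusted p of 0.275 from edgeR's quasi-likelihood test with Benjamini-Hochberg adjustment over all windows. Its sites chr5:140346112 and chr5:140346401 were among the most used of the locus, with 295 and 156 HpaII tags in 786 AA replicate 1 and 183 and 137 in 769 AA replicate 1.

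The window chr5:140305001-140310000, with 21 reference CCGG, held 231, 48 and 0 HpaII tags in 786 AA replicate 1, 786 AA replicate 2 and the 786 control, and 408, 162 and 213 in the 769 samples. Its ratios were 3.03, 0.476 and 0 in 786 and 2.81, 4.23 and 1.47 in 769. Every 769 sample was above the genome average there. In the 786 control a count of 0 allows a ratio of up to 0.861 (3 tags, counting error only). Against that ratio the AA samples of 786 were on the mean 2.04-fold higher. That mean is carried by AA replicate 1, 3.52-fold higher, since AA replicate 2 lay at 0.553 of the allowed ratio and shows no increase. In 11 tested windows the 786 control was at 0 while both AA samples had more than 3 HpaII tags, and in none of the 11 were both above what the control allows. The AA difference in 786 had an adjusted p of 0.597 by edgeR's quasi-likelihood test.

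The rest of PCDHA was mostly closed. Its windows with 10 and 11 CCGG at chr5:140255001-140260000 and chr5:140205001-140210000 had ratios of at most 0.0910 and 0.204 in any sample. The site chr5:140255084 had 663 MspI tags over the 6 samples and 10 HpaII tags, 7 and 3 of them in 769 AA replicates 1 and 2. Further upstream, chr5:140180001-140185000 held 159, 42 and 0 HpaII tags in 786 AA replicate 1, 786 AA replicate 2 and the 786 control and 74, 1 and 0 in the 769 samples. Of these, 99, 42.5 and 0 in the 786 samples and 68, 1 and 0 in the 769 samples fell on chr5:140182849, a site with divided tags. The first window of the cluster, chr5:140165001-140170000, was high in the 769 control alone, with a ratio of 1.96, against 0.276 and 0.0945 in 769 AA samples, and 0.0156, 0.0619 and 0 in the 786 samples. All 144 HpaII tags of the 769 control there lay at chr5:140165910.

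None of the 14 PCDHB windows with the MspI minimum had a mean ratio over 1. Its 13 tested windows had mean ratios of 0.0427 to 0.695. The window chr5:140480001-140485000 stood out between samples, with 125, 33 and 0 HpaII tags in 786 AA replicate 1, 786 AA replicate 2 and the 786 control, against 5, 0 and 0 in the 769 samples. The 786 AA ratios there were 1.61 and 1.19 and the 769 AA ratios 0.0719 and 0, while both controls were at 0, which in the 786 control allows a ratio of up to 3.71. The log2 fold change of 786 over 769 was 5.28 (SE 2.47, edgeR quasi-likelihood adjusted p = 0.303). In the window chr5:140515001-140520000 the ratios were 0.507 and 0.449 in 786 AA samples against 0 in the 786 control, and 0.227 and 0.0357 in 769 AA samples against 0.640 in the 769 control. The 0 in the 786 control allows a ratio of up to 1.44, above both 786 AA samples, so the direction in 786 is not known there. Of the windows tested in the locus, chr5:140560001-140565000 was the only one whose AA samples were all below the control of their line, at 0.377 and 0.650 against 1.39 in 786 and 0.178 and 0.0966 against 0.607 in 769. That is 1 of 35, against 6.31% of all windows tested. The 1.39 of the 786 control rests on 4 HpaII tags, so the direction in 786 is not firm there. In the 769 control 21.5 of its 22 tags there were divided tags of chr5:140563971, one of the repeated sites described next.

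Much of PCDHB could not be read gene by gene. In the locus, 39 sites with at least 20 MspI tags fell into 16 groups whose members had the same non-whole counts in all 12 libraries: 22 sites of 8 groups in PCDHB, 9 sites of 4 groups in PCDHG and 8 sites of 4 groups in PCDHA. The sites chr5:140559455, 140563971, 140568728 and 140573962 each had 376 MspI and 55.2 HpaII tags in all, spread over 4 windows. The sites chr5:140537418, 140554253, 140581184 and 140590316 each had 290 MspI and 10.9 HpaII tags. Members of such a group are 1 measurement written several times, so the windows that hold them are not independent, and which gene gave the tags is not known. These 8 were the only PCDHB sites that reached 10 MspI tags in every DNA sample.

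In PCDHG the CCGG-rich windows ranged from open to closed. The window chr5:140855001-140860000, with 23 reference CCGG, takes in the matched PCDHGC3 promoter and held 230, 129 and 11 HpaII tags in 786 AA replicate 1, 786 AA replicate 2 and the 786 control, and 154, 65 and 0 in the 769 samples. Its ratios were 12.4, 1.34 and 3.27 in 786 and 2.26, 2.49 and 0 in 769. The 12.4 rests on 11 MspI tags. All 3 samples of 769 had a lower ratio here than in the PCDHA window chr5:140305001-140310000. The 769 control had 127 MspI tags there, and its count of 0 allows a ratio of up to 0.0535 (3 tags, counting error only). Against that ratio the 769 AA samples were 44.4-fold higher on the mean. The 1276 HpaII tags of the 769 control in the locus lay at 38 sites, so this fold is not a firm lower bound. The AA difference in 769 had a log2 fold change of 9.94 (SE 2.61), which depends on the prior count, and an adjusted p of 0.0875 by edgeR's quasi-likelihood test. In 786, the control lay between its AA samples.

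The matched promoter sites printed above had small counts. The 3 PCDHGC3 sites (chr5:140855416, 140855523 and 140855548 in hg19) had 176, 43 and 0 HpaII tags in the 786 samples and 5, 8 and 0 in the 769 samples, in the order AA replicate 1, AA replicate 2 and control. Their MspI tags were 2, 7 and 23 in 786 and 0, 0 and 4 in 769, too few for a ratio. PCDHGB4 was almost closed. It had 2 HpaII tags, in 786 AA replicate 2, beside 8.5, 34 and 32.5 MspI tags in 786 and 35.5, 7 and 62 in 769. PCDHGB5 had 79 HpaII tags in 769 AA replicate 1, all at chr5:140777542, where that sample had no MspI tag, and none in the other samples. The sites at bases 264 and 277 had identical counts in PCDHGB4 and PCDHGB5 in every library, and no HpaII tag in any. Those are the sites inside the stretch that both sequences share.

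PCDHGB6 had a ratio above 1 in 786 AA replicate 2 and the 769 control only. Its 6 sites over both starts held 137, 79.5 and 0 HpaII tags in 786 AA replicate 1, 786 AA replicate 2 and the 786 control, and 30, 22.5 and 217 in the 769 samples. Their MspI tags were 0, 50 and 71.5 in 786 and 50, 76 and 104 in 769. The ratio was thus 2.64 and 0 in 786 AA replicate 2 and the 786 control, with none for 786 AA replicate 1. It was 0.483, 0.386 and 4.72 in the 769 samples. Of the 217 tags in the 769 control, 205 lay at chr5:140787624, the CCGG at base 103 of the printed sequence, where the same sample had 7 MspI tags. That site made up 63.5% of all HpaII tags of the 769 control in PCDHG.

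The other CCGG-rich windows of PCDHG named here were low but for chr5:140795001-140800000, some with a single sample that stood above the rest. In chr5:140795001-140800000 the ratio was 0.158, 0.892 and 0.456 in 786 AA replicate 1, 786 AA replicate 2 and the 786 control, and 1.52, 1.74 and 0.0161 in the 769 samples. Both AA samples were above the control in 769 (edgeR quasi-likelihood adjusted p = 0.231). Each control had 1 HpaII tag there, so the place of the 786 control beside its AA samples is not known. In chr5:140730001-140735000 the ratio was 0.767, 0.0758 and 0 in the 786 samples and 0.0420, 0 and 0 in the 769 samples. Of its 122 HpaII tags in 786 AA replicate 1, 105 lay at chr5:140732131, the site with the most MspI tags of PCDHG, 822 over the 6 samples. In chr5:140775001-140780000, which takes in the matched PCDHGB5 promoter, it was 0.204, 0.104 and 0 in 786 and 1.52, 0.0767 and 0 in 769. In chr5:140790001-140795000 and chr5:140810001-140815000 no sample had a ratio above 0.262 and 0.173.

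The densest window of the locus was closed. With 34 reference CCGG, chr5:140870001-140875000 held 161, 300 and 400 MspI tags in 786 AA replicate 1, 786 AA replicate 2 and the 786 control and 166, 93 and 318 in the 769 samples. Its HpaII tags were 0 in all 786 samples, and 1, 0 and 0 in the 769 samples. It had too few HpaII tags to be tested and was singled out after its values were seen. It lies close to the open window with the PCDHGC3 promoter. At the far end of PCDHG, chr5:140890001-140895000 held 449, 101 and 7 HpaII tags in the 786 samples and 24, 0 and 0 in the 769 samples. Its ratios were 2.71, 1.35 and 4.38 in 786 and 0.293, 0 and 0 in 769, so the lines did not overlap. The log2 fold change of 786 over 769 was 5.93 (SE 1.75, edgeR quasi-likelihood adjusted p = 0.0859). Most of these tags lay at chr5:140893840, with 335, 71 and 7 HpaII tags in 786 and 2, 0 and 0 in 769.

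**Figure D4:**
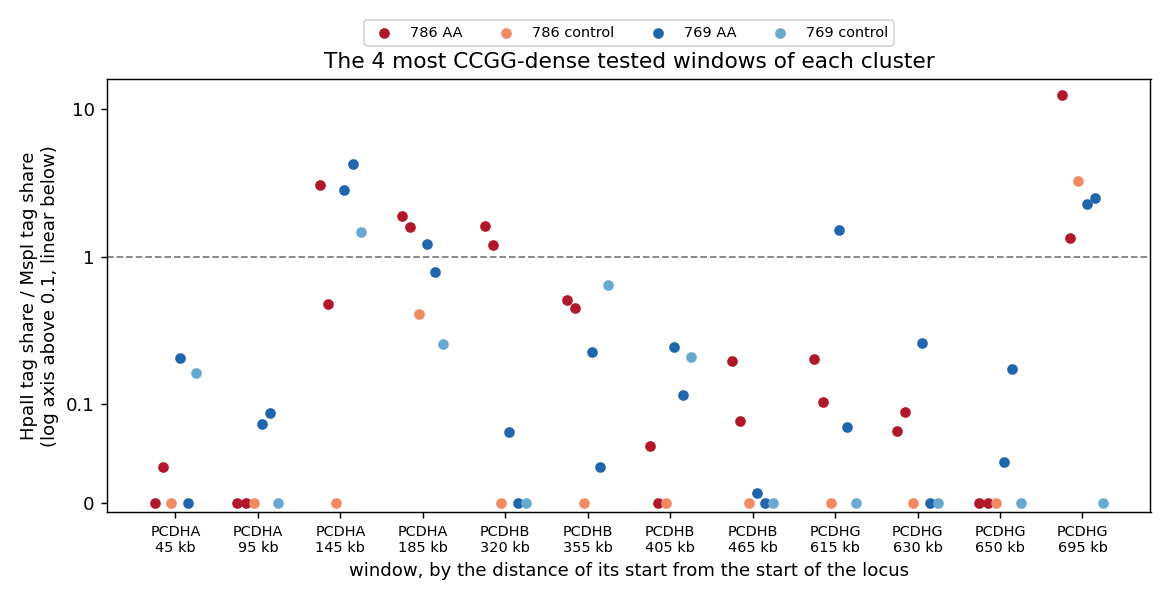
Ratio of HpaII to MspI tag share (vertical axis, logarithmic above 0.1 and linear below) in the 4 tested windows of each cluster with most reference CCGG, 1 point a DNA sample; windows are named by the distance of their start from the start of the locus. The windows at 145 and 185 kb in PCDHA and 695 kb in PCDHG hold points above 1 in both lines, while most points of the other windows lie below 0.3.

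Of the 42 windows with the MspI minimum, 35 reached 10 HpaII tags summed over samples and were tested in 1 fit with 29875 windows of the genome: 10 in PCDHA, 13 in PCDHB, 11 in PCDHG and 1 between them. By edgeR's quasi-likelihood test none of the 35 passed an adjusted p of 0.05 in any comparison. For 786 against 769, 1.99% of all windows passed. At an unadjusted p under 0.05 there were 4 of 35, against 15.8% of all windows, and DESeq2 called 3 of 35, against 10.9% of all. For AA against control in both lines, 0.147% of all windows passed, 2 of 35 were under 0.05 unadjusted, against 11% of all, and DESeq2 called none of the 35, against 2.44%. For AA against control in 769 alone, 0.847% passed, 5 of 35 were under 0.05 unadjusted, against 14.7%, and DESeq2 called 3, against 11.2%. For AA against control in 786 alone, 0.0669% passed, 1 of 35 was under 0.05 unadjusted, against 8.73%, and DESeq2 called none, against 0.418%. The locus shares were near or below the background in each of these.

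DESeq2 called chr5:140250001-140255000, chr5:140480001-140485000 and chr5:140890001-140895000 higher in 786 than in 769. It called chr5:140345001-140350000, chr5:140795001-140800000 and chr5:140855001-140860000 higher with AA in 769. Over the 35 windows the median log2 fold change of 786 over 769 was 0.54, against 0.33 over all windows tested, and that of AA over control in both lines was 2.56, against 1.12. Such medians depend on the prior count, because many windows had no tag in a control, and neither is stable. For the lines the median was -0.41 over 87 windows with no low count filter, against 0.22 over all, 0.04 without the 786 control, against 0.36, and 0.06 without the 769 control, against 0.38. For AA it was 0.93 with DESeq2, against 0.68. Between the lines 1 of 35 windows had every 786 sample above every 769 sample, against 8.39% of all windows, and 2 of 35 had every 786 sample below, against 6.08%. Every AA sample was above the control of its line in 7 of 35, against 20.1% of all windows, with controls at 0 taken as 0.

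The test of whether AA moved the lines differently gave no call among the 35 windows by edgeR's quasi-likelihood test, against 0.0736% of all windows, and 2 of 35 under 0.05 unadjusted, against 10.5%. DESeq2 called 1, chr5:140675001-140680000 between PCDHB and PCDHG, against 3.72% of all windows. There the ratio was 0.161 and 0.935 in 786 AA samples against 7.91 in the 786 control, and 0.652 and 3.85 in 769 AA samples against 0 in the 769 control. The 7.91 rests on 7 HpaII tags, and edgeR gave the difference an adjusted p of 0.357.

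In windows of 100 kb, the end of PCDHG passed the test. From chr5:140800001 to 140900000 there were 836, 330 and 21 HpaII tags in 786 AA replicate 1, 786 AA replicate 2 and the 786 control, and 304, 210 and 0 in the 769 samples, beside 472, 398 and 840 MspI tags in 769. With the 769 control at its floor of 3 tags, which covers counting error only, the 769 AA samples were 74.7-fold higher on the mean. This was the only one of 8 locus windows called for AA in 769 (edgeR quasi-likelihood adjusted p = 0.000897), against 3.73% of all 100 kb windows. It was also the only one called for a difference of the AA effect between the lines (edgeR adjusted p = 0.00863), against 0.986% of all, with a log2 difference of -11.38 (SE 1.63) for 786 minus 769. The ratio there was 1.08 and 0.514 in 786 AA samples against 1.04 in the 786 control, and 0.519 and 0.688 in 769 AA samples against 0 in the 769 control. Both p-values assume that the single control of a line varies like the other samples, so spread between controls is not measured.

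At single sites the locus was not lower than the genome in all samples. Only 20 of the 595 sites reached 10 MspI tags in every DNA sample, 9 in PCDHA, 8 in PCDHB and 3 in PCDHG, and 11 of the 20 had non-whole counts. The 8 in PCDHB are the 2 shared groups named above, each written 4 times. An HpaII tag was seen at 70%, 55% and 5% of them in 786 AA replicate 1, 786 AA replicate 2 and the 786 control, and at 80%, 60% and 25% in the 769 samples. Over all 17290 such sites these shares were 54.5%, 53.9% and 16.4% in 786 and 67.7%, 36.2% and 26.1% in 769. As listed, the locus share was thus the higher one in all 4 AA samples and the lower one in both controls. Each shared group enters these shares 4 times, and that of chr5:140537418 had HpaII tags in all 4 AA samples and in no control. The order beside the genome is therefore not shown for separate measurements. It also did not hold in libraries thinned to the smallest of their enzyme. There the shares were 15.4%, 15.4% and 0% in 786 and 30.8%, 15.4% and 15.4% in 769 over 13 locus sites. Over all 10168 such sites they were 37.1%, 36.5% and 17.6% in 786 and 33.8%, 23.3% and 14.3% in 769. The locus share was then the lower one in all 4 AA samples and the higher one in the 769 control. Without thinning, the median ratio of the sites in 769 AA replicate 1 was 0.112 in the locus and 0.0310 over all such sites. The 0.112 is the repeated value of the group with chr5:140537418. In both unthinned sets the 769 control had a tag at fewer sites than 769 AA replicate 2, although it held more HpaII tags. At 3 of the 20 sites, among them chr5:140871233 in the densest window, no sample had an HpaII tag.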

How the data were processed

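Per the labels' protocols, genomic DNA was digested with HpaII or MspI in separate reactions, and EcoP15I tags at the cut ends were sequenced. The authors deposited 1 file a library with an expected count per CCGG site, that is, tags that match several places were divided among them, which leaves counts that are not whole. The build is hg19 per the submitters' processing notes, and for the aligner: not given in the sources used here. Ratios use column sums over chromosomes 1 to 22 and X. The expected counts were summed in 5 kb windows, rounded to whole numbers, and tested over 29875 windows with edgeR 4.0.16 in R 4.3.3 (glmQLFit and glmQLFTest, TMM factors within each enzyme), as the enzyme term by line and by AA, with DNA sample as a covariate and Benjamini-Hochberg adjustment. Windows had at least 10 MspI tags in each MspI library and 10 HpaII tags over the HpaII libraries. The AA tests within a line had 2 residual degrees of freedom, and the single control was assumed to vary like the other samples. DESeq2 1.42.0 was an alternative, beside other filters, scalings, thinning, HpaII alone, whole-count sites and left-out samples. The fit was tested on simulated data first, with changes placed only in windows with many HpaII tags, so sparse windows were not covered. Cluster ratios were compared by exact permutation over the 6 DNA samples (Python 3.11.15, scipy 1.17.1).

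The locus, clusters and gene lists were chosen with earlier results of these data known. Named windows are the 5 of smallest p in each comparison and the 4 tested windows of each cluster with most reference CCGG, and named sites are the 3 of each cluster with most MspI tags; promoter sites, the highest sites of a library, those of shared groups, and the windows chr5:140165001-140170000, chr5:140500001-140505000, chr5:140555001-140560000, chr5:140560001-140565000, chr5:140570001-140575000 and chr5:140870001-140875000 were added after their values were seen. RefSeq promoters are on GRCh38.p14 and were placed by the spacing of at least 3 CCGG over consecutive site numbers, never by converting coordinates. The PCDHGB4, PCDHGB5 and printed PCDHGB6 patterns occurred 7, 2 and 1 times over all listed sites, and that of PCDHGC3 2 times, each 1 time in the locus. With 1 matched start each, PCDHGB4, PCDHGB5 and PCDHGC3 gave 1 and the same difference between RefSeq and listed positions.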

Additional observations from a re-analysis of the deposited data

Results flagged for a closer look

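The 7 results below are given because both AA ratios of one line lay above its control and both AA ratios of the other line lay below, as measured. Among the windows tested this was so in 6 of 35 (17.1%), against 21% of all 29875. The values are the difference between the mean AA ratio and the control ratio. For the whole locus it was -0.0542 in 786 and 0.128 in 769, so that 786 minus 769 was -0.182, and this difference was not tested. The interval of the 786 control, 0.398 to 0.672, holds both 786 AA ratios, 0.504 and 0.432, so no change in 786 is shown. In the window chr5:140675001-140680000 it was -7.36 in 786 and 2.25 in 769, a difference of -9.61, and edgeR's quasi-likelihood test of the difference gave an adjusted p of 0.357.

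In the other 5 windows the 786 control had 0 HpaII tags, and the ratio that 3 tags would give was above both 786 AA samples in each, so no direction in 786 is shown. That ratio was 2.44 in chr5:140165001-140170000, 3.12 in chr5:140500001-140505000, 1.44 in chr5:140515001-140520000, 1.29 in chr5:140555001-140560000 and 1.56 in chr5:140570001-140575000. The AA minus control difference in 786 and in 769 was 0.0387 and -1.78 in the first of these, a difference of 1.82 between the lines. It was 0.274 and -2.65 in the window at 140500001, a difference of 2.92, and 0.478 and -0.509 in that at 140515001, a difference of 0.987. It was 0.129 and -0.432 in the window at 140555001, a difference of 0.561, and 0.0639 and -0.489 in that at 140570001, a difference of 0.553. The adjusted p of these 5 differences was between 0.608 and 1.0 by edgeR's quasi-likelihood test. The windows at 140555001 and 140570001 hold sites of shared groups and are not independent. Each line has 1 control, and the part of its depth in these differences was not tested.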

How the results depend on the processing

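The number of locus windows called was 0 in all 5 comparisons and changed under few settings. It was 3 with DESeq2 for 786 against 769 and for AA in 769, and 1 for the difference between the lines. For AA in 769 it was 1 with no low count filter (0.281% of all windows), 2 with HpaII alone (5.73%) and 1 in windows of 100 kb, and for the difference between the lines 1 with HpaII alone (3.11%) and 1 in windows of 100 kb. With a replicate block it was 1 for 786 against 769 (chr5:140890001-140895000, adjusted p 0.0266 in edgeR, 3.08% of all windows) and 1 for AA in 769 (chr5:140855001-140860000, adjusted p 0.0125 in edgeR, 3%); the AA numbers only share a name, since the deviations of the lines correlated at -0.019. Leaving out 1 sample gave 0 to 1 for 786 against 769 (1 without 769 AA replicate 1, 1.11% of all) and 0 to 1 for AA in 769 (1 without 786 AA replicate 1, 2.55% of all), and 0 for AA in both lines, for AA in 786 and for the difference. With 1 sample left out, the log2 difference of 786 minus 769 ranged between -0.374 and 0.351 in PCDHA (0.194 without 769 AA replicate 1, 0.351 without the 786 control) and between -0.101 (without the 769 control) and 0.395 in PCDHG, and the difference reversed for the whole locus counted as sites with a tag (-0.112, exact permutation p = 0.7). The mean share of well covered sites with an HpaII tag was 49.2% and fell to 15.4% in thinned libraries. The cause of these changes was not tested. Among the values of single named windows under alternatives, 277 kept their direction and side of the threshold, 14 passed it and 0 changed sign. These windows were picked by smallest p in the same samples, so the lack of sign changes says little about stability. The median log2 fold change of AA in 786 over all windows was 3.08, and 2.88 with library totals in place of TMM. It was 0.67 with DESeq2, 0.63 in thinned libraries, 0.1 with 10 HpaII tags in every HpaII library and 6.33 without the top site of each library. In the locus it was 4.53, against -0.63 with DESeq2 and 6.26 without the top sites. The locus median of the difference between the lines was 1.44, against -2.98 with DESeq2 and 2.59 without the top sites. A minimum of 10 HpaII tags in every HpaII library left no locus window, whole-count sites gave no PCDHB value because the 786 control had none, and without a control the AA difference over both lines is that of the other line, with 0 locus windows called either way. HpaII depth limits all values of the 786 control.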
